A study of Homo sapiens with 2 samples.

Results

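The microRNA genes that mark epithelial cells and a set of microRNA genes tied to mesenchymal, growth and stress programs were examined in the open chromatin of B2B cells. The 10 genes were listed by name among the 62663 genes that GENCODE 44 annotates on chromosomes 1 to 22, X and Y. The 6 epithelial genes are MIR200B, MIR200A, MIR429, MIR200C, MIR141 and MIR205HG, and the 4 others are MIR21, MIR100HG, MIR31HG and MIR22HG. Because MIR200B, MIR200A and MIR429 lie side by side, as do MIR200C and MIR141, the 10 genes make up 7 separate loci, of which 3 are epithelial. Peaks were read in a window reaching 50 kb beyond either end of each gene, and genes of a cluster share their window, so they are not independent of each other.

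B2B is the BEAS-2B line, a wild-type, non-cancerous bronchial epithelial line immortalized with a viral oncogene, and it was profiled untreated by ATAC-seq in 2 biological replicates. ATAC-seq uses the Tn5 transposase to insert adapters into accessible DNA, and a peak is a stretch with more fragments than its surroundings. Both replicates are of 1 condition, which leaves no groups to compare, and the values below are descriptions with no test. All values come from a single cell line and say nothing of bronchial epithelium in tissue.

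A microRNA is cut from a hairpin within a longer primary transcript, and the mature strand finds its target messenger RNAs mainly through its seed, bases 2 to 8. The miR-200 family and miR-205 are known for holding cells in the epithelial state by repressing ZEB1 and ZEB2, the transcription factors that in turn bind E-boxes in the miR-200 promoters and shut them off. miR-21 and miR-31 are abundant in many growing and tumour cells, miR-22 is transcribed from a host gene of its own, and MIR100HG carries the hairpins of miR-100, let-7a and miR-125b.

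The mature sequences are printed because the family membership rests on the seed. RefSeq (GRCh38.p14) held all 12 mature strands that were looked up, with 9 different seeds, and the seed is in capitals.
hsa-miR-200b-3p: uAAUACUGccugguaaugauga
hsa-miR-200c-3p: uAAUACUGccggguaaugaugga
hsa-miR-429: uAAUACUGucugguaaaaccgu
hsa-miR-200a-3p: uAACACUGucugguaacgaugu
hsa-miR-141-3p: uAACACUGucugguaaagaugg
hsa-miR-205-5p: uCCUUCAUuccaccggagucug
hsa-miR-21-5p: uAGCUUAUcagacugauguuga
hsa-miR-31-5p: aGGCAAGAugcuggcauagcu
hsa-miR-22-3p: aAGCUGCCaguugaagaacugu
hsa-miR-100-5p: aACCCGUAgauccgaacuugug
hsa-let-7a-5p: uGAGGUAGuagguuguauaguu
hsa-miR-125b-5p: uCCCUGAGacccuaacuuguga

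The first 3 strands share the seed AAUACUG and the next 2 share AACACUG, and each seed group draws members from both the chromosome 1 and the chromosome 12 cluster. No seed was shared between an epithelial strand and any of the others.

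The lists held 28735 peaks for replicate 1 and 36162 for replicate 2. The weakest listed peak had 16 fragments at its summit in replicate 1 and 13 in replicate 2, so a weaker opening would not be listed, and the lack of a peak does not show that a site is closed. Peaks of both replicates that overlapped by at least 1 bp were merged into 25366 shared open regions. The fold enrichment sets the fragments at the summit against the local background, and its median over these regions was 6.41 in replicate 1 and 8.01 in replicate 2. Of the peaks, 92.3% of those in replicate 1 and 72.1% of those in replicate 2 overlapped a peak of the other replicate.

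The labelled cell type was checked against marker genes, counting a gene where both replicates had overlapping peaks within 1 kb of the start of its canonical transcript. Of 12 bronchial epithelial markers, 1 had such a peak, against 52.0% of all protein-coding genes. This was KRT18, a keratin of simple epithelia, at a fold enrichment of 5.68 ± 0.933 (SD, n = 2). CDH1, EPCAM, KRT5, KRT14, KRT19 and TP63, which encode adhesion molecules, keratins and the basal cell factor p63, had no peak there in either replicate. Of 12 mesenchymal markers 8 had a peak, among them VIM at 7.18 ± 0.363 and FN1, the gene of fibronectin, at 9.46 ± 0.585 (SD, n = 2). Of 4 endothelial markers 1 had a peak, KDR at 5.31 ± 1.14, and of 4 blood markers 0 had one. With any annotated transcript start in place of the canonical one the counts were 3, 11, 1 and 0, against 55.8% of all protein-coding genes. The listed epithelial markers were thus largely without a promoter peak in cells labelled bronchial epithelial. The marker lists were chosen with earlier results of these data known, so this is a description and not an independent check.

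No epithelial microRNA gene had a peak at its start in either replicate, whereas 3 of the 4 other genes had one in both. The start was the first base of the canonical transcript for the host genes and the 5′ end of the hairpin for the microRNA genes, which is not the start of their primary transcript. Among the hairpin genes 0 of 5 epithelial ones and 0 of 1 other, MIR21, had a peak within 1 kb, against 9.53% of all 1879 microRNA genes. Among the host genes MIR205HG had none and MIR100HG, MIR31HG and MIR22HG each had one, against 18.6% of all 18866 long non-coding RNA genes. At MIR22HG the overlapping peaks were those of the region among its other annotated starts. Most epithelial genes in the list are hairpins and most of the others are hosts, so the class cannot be told apart from the kind of start in this count.

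The count was also repeated over any annotated start, taking in transcripts on the same strand that span a hairpin. The epithelial count stayed at 0 of 6 and the other count became 4 of 4. The repeat does not part the class from the kind of start. MIR200B, MIR200A and MIR429 have only the hairpin as a start, so their result could not change. MIR200C and MIR141 have 2 starts each, and the other genes have between 8 and 87, which gives those more places for a peak. Under this rule 46.4% of all microRNA genes and 20.2% of all long non-coding RNA genes had a peak in both replicates. MIR200C and MIR141 are spanned by their host MIR200CHG, whose start at position 6963226 of chromosome 12 had no peak within 1 kb in either replicate. The chromosome 1 cluster has no annotated transcript across its hairpins, so its primary start was not examined. MIR205HG has 10 annotated starts and 0 of them had a peak. MIR21 was counted through VMP1, the gene that contains it, with a peak at 7 of its 8 starts. MIR31HG had one at 15 of 21, MIR22HG at 20 of 20 and MIR100HG at 11 of 87.

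The distance from each start to the edge of the nearest peak was shortest at 3 of the other genes and longest at MIR205HG, with MIR21 close to MIR200C and MIR141 in replicate 2. For MIR200B it was 9.40 kb in replicate 1 and 8.92 kb in replicate 2, and for MIR429 at the far end of the cluster 11.3 and 10.8 kb. For MIR200C it was 6.81 kb in replicate 1 and 1.48 kb in replicate 2, and for MIR141 6.42 and 1.88 kb. MIR205HG stood farthest from any peak, at 18.7 kb in both replicates. MIR21 was at 1.98 and 1.94 kb. The peaks lay directly over the start of MIR100HG and MIR31HG in both replicates, and for MIR22HG over the start in replicate 1 and 0.339 kb away in replicate 2. The replicates differed by under 0.6 kb at every gene but MIR200C and MIR141.

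**Figure D1:**
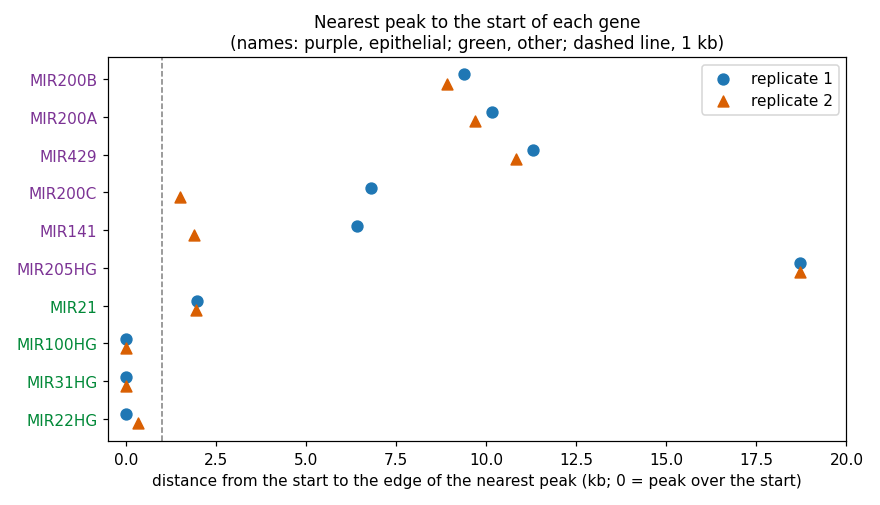
Distance in kb from the start of each gene to the edge of the nearest peak, with 1 point per replicate and a dashed line at 1 kb. The epithelial genes (purple) lie between 1.48 and 18.7 kb from a peak, and MIR100HG, MIR31HG and MIR22HG (green) lie within 0.339 kb of one in both replicates.

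The number of open regions around the loci did not separate the classes. Every one of the 7 loci held at least 1 shared open region, as did 67.4% of the windows of all microRNA genes. That share is for hairpins, with windows of about 100 kb. The windows of the host genes MIR100HG and MIR31HG span 628 and 280 kb, so the share is not a like measure for them. The 3 epithelial loci held 7 shared regions in 307 kb, or 2.28 per 100 kb, and the 4 others held 20 in 1114 kb, or 1.80 per 100 kb. Among single loci the density ran from 0.981 to 3.98 per 100 kb in the epithelial loci and from 1.11 to 3.78 in the others, so the ranges overlap. The median over all microRNA genes was 0.999 per 100 kb, with quartiles at 0.00 and 2.997, and over all long non-coding RNA genes 0.968.

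The replicates gave different counts at the epithelial loci. Replicate 1 had 7 peaks there and replicate 2 had 18, so without replicate 1 the epithelial count rises from 7 to 18 and without replicate 2 it remains 7. At the other loci the replicates had 24 and 26 peaks. Of the epithelial peaks of replicate 2, 44.4% had a counterpart in replicate 1, against 76.9% at the other loci and 72.1% over all peaks of that replicate. The 10 epithelial peaks without a counterpart were weak, with fold enrichments between 3.62 and 4.98 and between 15 and 21 fragments at the summit. Peaks without a counterpart at the other loci were of like fold enrichment. The 6 of replicate 2 had between 3.63 and 5.44, and the 2 of replicate 1 between 3.76 and 5.02.

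**Figure D2:**
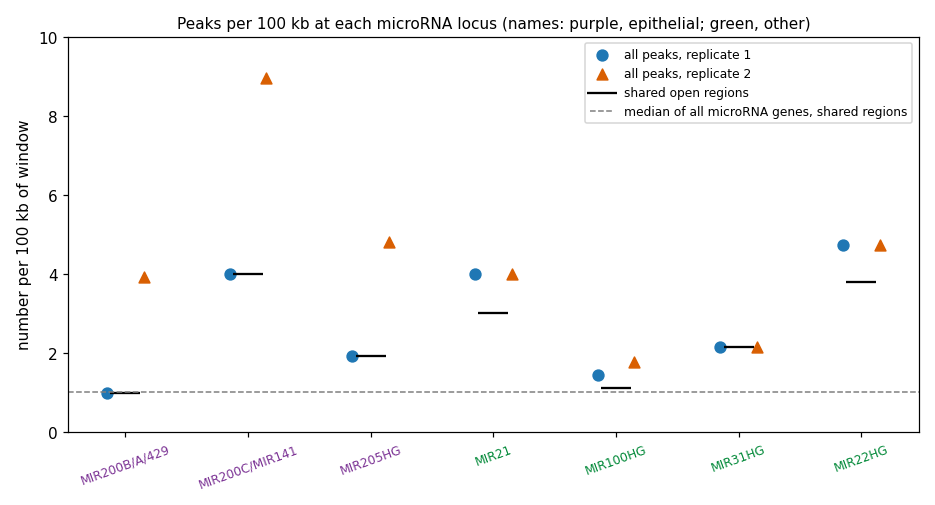
Peaks per 100 kb of window at each locus for replicate 1 (circles) and replicate 2 (triangles), with shared open regions as black bars and the median of all microRNA genes as a dashed line. The replicates stand apart at the 3 epithelial loci and give like values at the 4 others, and the black bars run from 0.981 to 3.98 in the epithelial loci and from 1.11 to 3.78 in the others.

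At the miR-200b cluster (MIR200B, chr1:1167104-1167198; MIR200A, chr1:1167863-1167952; MIR429, chr1:1169005-1169087; all on the plus strand) the only shared region lay upstream of the hairpins. Its summit was 9.48 kb before MIR200B, in sequence between genes, and 16257 bp from the start of the protein-coding gene TTLL10. Replicate 1 gave a fold enrichment of 6.41 and replicate 2 one of 8.16, with a mean of 7.28 ± 1.23 (SD, n = 2), with 36 and 35 fragments. Both values lie close to the medians of all shared regions. Replicate 2 had 3 further peaks in the window, at 44.8 and 9.03 kb before MIR200B and 41.0 kb after it. The region is shown because it is the sole shared opening near this cluster. It lies at chr1:1157523-1157723 (hg38, plus strand, 100 bases to either side of the summit), and none of the motifs searched occurs in it.
miR-200b cluster upstream region: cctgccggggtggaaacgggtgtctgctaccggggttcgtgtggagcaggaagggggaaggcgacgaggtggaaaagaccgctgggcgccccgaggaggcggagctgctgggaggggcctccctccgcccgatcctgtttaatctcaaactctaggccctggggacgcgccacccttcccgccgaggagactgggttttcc

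At the miR-200c locus (MIR200C, chr12:6963699-6963766; MIR141, chr12:6964097-6964191; plus strand) all 4 shared regions had their summit within 1 kb of an annotated start of a neighbouring gene. Which gene they act on was not tested. One lay 49 bp from the start of ENO2, which encodes a neuronal enolase, at a fold enrichment of 5.02 ± 1.22 (SD, n = 2). Another lay 399 bp from a start of ATN1, at 6.28 ± 1.05. The strongest, at 9.51 ± 1.62, covered the start of C12orf57, with 8.36 in replicate 1 and 10.7 in replicate 2. These values do not share a summit, because replicate 2 had 2 peaks in this region. At the C12orf57 start replicate 1 had the 8.36 and replicate 2 had 7.72. The 10.7 of replicate 2 had its summit 116 bp from the start of a long non-coding RNA gene, ENSG00000272173. The last lay 105 bp from the start of EMG1 and 28 bp from that of PHB2, which encodes prohibitin 2, at 6.85 ± 1.85. This last was the closest to the hairpins, 7.11 kb beyond the 5′ end of MIR200C. Of the 4 summits, 3 lay within 1 kb of the canonical start of a protein-coding gene, and the one at ATN1 near another of its starts.

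A single weak peak came near the host gene of miR-200c. Replicate 2 had a peak with its summit 1079 bp before the start of MIR200CHG (fold enrichment 3.85, 16 fragments, −log10 q 4.38), and replicate 1 had none there. It was 3 fragments above the weakest peak listed for that replicate. The promoter of MIR200CHG is shown because it had no peak and holds 1 CAGGTG E-box, the element bound by ZEB and SNAIL factors. The sequence is that of RefSeq (GRCh38.p14), at chr12:6962995-6963294 on the plus strand, 250 bases before to 50 after the start, with the E-box in capitals, read there as CACCTG. Such an element on either strand occurs in 20.6% of the 35116 RefSeq promoters of this length.
MIR200CHG promoter: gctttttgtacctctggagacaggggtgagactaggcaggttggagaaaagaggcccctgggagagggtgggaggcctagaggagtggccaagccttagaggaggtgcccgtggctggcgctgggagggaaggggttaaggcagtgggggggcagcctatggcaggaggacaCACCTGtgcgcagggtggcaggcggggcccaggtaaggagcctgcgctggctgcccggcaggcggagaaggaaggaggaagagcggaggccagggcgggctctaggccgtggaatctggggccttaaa

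MIR205HG (chr1:209428817-209432848, plus strand), which carries the hairpin of miR-205 (MIR205, chr1:209432133-209432242), had no peak of either replicate inside the gene. Its 2 shared regions lay 30.0 and 18.9 kb upstream of its start, both between genes. The nearer had a fold enrichment of 6.41 in replicate 1 and 6.80 in replicate 2, with a mean of 6.60 ± 0.273 (SD, n = 2), and the farther 4.85 ± 1.47. No protein-coding gene starts in this window, and the closest, CAMK1G, starts 173753 bp from the nearer summit. Replicate 2 had 3 more peaks, all upstream, between 23.5 and 40.8 kb from the start and between 4.30 and 4.98 in fold enrichment. From the hairpin itself the nearest peak edge was 22.03 kb away in replicate 1 and 22.02 kb in replicate 2.

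The promoter of MIR205HG is printed as the peak-free start of this locus. It is the RefSeq sequence at chr1:209428570-209428869 (GRCh38.p14, plus strand), and none of the searched motifs occurs in it.
MIR205HG promoter: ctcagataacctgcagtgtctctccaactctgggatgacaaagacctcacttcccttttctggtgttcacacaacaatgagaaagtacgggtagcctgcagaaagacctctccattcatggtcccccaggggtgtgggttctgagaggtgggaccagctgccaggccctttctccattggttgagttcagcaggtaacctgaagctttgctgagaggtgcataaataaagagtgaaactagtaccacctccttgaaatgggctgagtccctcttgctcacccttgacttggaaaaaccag

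MIR21 (chr17:59841266-59841337, plus strand) was surrounded by 3 shared regions. It lies just inside the end of VMP1, a gene for a membrane protein of autophagy (chr17:59707192-59842255), and its primary transcript is known to start inside VMP1. One region lay 3.47 kb before the hairpin and 56 bp from the start of a short annotated VMP1 transcript, at a fold enrichment of 6.58 in replicate 1 and 8.84 in replicate 2, with a mean of 7.71 ± 1.59 (SD, n = 2). A second, in a VMP1 intron 11.8 kb before the hairpin, was stronger at 7.103 and 9.29, or 8.20 ± 1.55. The third lay 2.08 kb past the 5′ end of the hairpin, beyond the end of VMP1, at 5.02 and 5.09. All 3 were in both replicates, and a peak 12.2 kb downstream, at 5.44, was in replicate 2 only. The canonical VMP1 start, at position 59707654, also had a peak in both.

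The 3 regions are shown because together they frame the hairpin. They lie at chr17:59829389-59829589, chr17:59837699-59837899 and chr17:59843250-59843450 (hg38, plus strand), with AP-1 motifs, TGAGTCA or TGACTCA, in capitals.
MIR21 intronic region: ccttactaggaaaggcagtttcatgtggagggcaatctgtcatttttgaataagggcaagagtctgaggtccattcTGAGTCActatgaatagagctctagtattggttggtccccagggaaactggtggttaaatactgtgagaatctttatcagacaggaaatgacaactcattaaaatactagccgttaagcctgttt
MIR21 start region: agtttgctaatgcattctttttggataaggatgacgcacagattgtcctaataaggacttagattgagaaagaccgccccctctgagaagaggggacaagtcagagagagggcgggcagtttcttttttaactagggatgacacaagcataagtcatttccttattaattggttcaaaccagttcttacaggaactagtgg
MIR21 downstream region: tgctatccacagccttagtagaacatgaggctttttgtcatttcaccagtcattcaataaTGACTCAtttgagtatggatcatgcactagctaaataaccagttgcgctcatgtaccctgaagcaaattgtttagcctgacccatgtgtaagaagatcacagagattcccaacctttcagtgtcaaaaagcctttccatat

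The intronic and the downstream region each hold 1 AP-1 motif. None of the searched motifs occurs in the region at the start, and that says only that these letters are not in this window.

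MIR31HG (chr9:21380073-21559891, minus strand), the host of miR-31, had 6 shared regions, and each of its peaks in either replicate had a counterpart in the other. One sat on its promoter, with the summit 15 bp upstream of the canonical start, at a fold enrichment of 5.02 in replicate 1 and 9.74 in replicate 2, with a mean of 7.38 ± 3.34 (SD, n = 2). This was the widest spread between the replicates among all 27 regions. An intronic region 10.5 kb into the gene had 6.34 ± 1.61. Upstream of the gene, 17.0 and 31.9 kb before the start, were regions of 5.86 ± 0.283 and 8.40 ± 1.58. The hairpin of miR-31 (MIR31, chr9:21512115-21512185) lies 47.7 kb beyond the promoter summit, and the nearest peak edge was 37.1 kb away in replicate 1 and 37.0 kb in replicate 2. The strongest region of all 7 loci was in this window but at another gene, 128 bp from the start of KLHL9, a subunit of a ubiquitin ligase, at 13.04 ± 0.179.

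The promoter region and the farthest upstream region of MIR31HG are printed as an example of a start rich in CpG and a distal region with an AP-1 motif. They lie at chr9:21559764-21559964 and chr9:21591698-21591898 (hg38, plus strand, opposite to the gene). The promoter holds 1 E-box of the kind found at MIR200CHG, in capitals, and the distal region 1 AP-1 motif.
MIR31HG promoter region: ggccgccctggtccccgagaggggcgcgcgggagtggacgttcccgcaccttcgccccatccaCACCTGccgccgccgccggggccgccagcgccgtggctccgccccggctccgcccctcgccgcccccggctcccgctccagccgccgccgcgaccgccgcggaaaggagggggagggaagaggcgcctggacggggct
MIR31HG upstream region: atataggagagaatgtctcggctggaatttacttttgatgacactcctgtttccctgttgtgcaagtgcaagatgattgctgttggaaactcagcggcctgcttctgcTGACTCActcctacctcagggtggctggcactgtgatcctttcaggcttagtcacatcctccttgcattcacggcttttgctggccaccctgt

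MIR22HG (chr17:1711447-1717174, minus strand), the host of miR-22, had a set of regions close to its hairpin. The hairpin (MIR22, chr17:1713903-1713987) had 3 shared regions upstream of it inside the gene, 0.779, 1.36 and 2.49 kb away. The last of these was the strongest, at 8.74 in replicate 1 and 7.56 in replicate 2, with a mean of 8.15 ± 0.836 (SD, n = 2), with 80 and 74 fragments. The inner ones were weaker, at 4.01 ± 0.122 and 3.93 ± 1.20. The strongest region lies among 19 of the 20 annotated starts of MIR22HG and 43 bp from a start of WDR81, which runs in the other direction, so its opening cannot be told apart between the genes. The canonical start, 0.694 kb farther out, had a peak of its own in replicate 1 at 3.76 and one 0.372 kb upstream of it in replicate 2 at 3.63, and these did not overlap. Another shared region lay at the start of PRPF8, a splicing factor gene, at 7.103 ± 2.45.

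MIR100HG (chr11:122028325-122556721, minus strand) is the longest of the host genes and had the sparsest regions per length among the 4 others. It had 7 shared regions, 5 of them inside the gene. The canonical start had a peak in both replicates, with the summit 87 bp upstream, at 6.41 and 7.25, or 6.83 ± 0.594 (SD, n = 2). It lies 404.5 kb before the hairpin of miR-100. A further 4 regions clustered 341 to 376 kb into the gene, between 28.3 and 63.2 kb before that hairpin, and 2 of these lay 2 and 3 bp from annotated internal starts. At the internal start 3 bp away replicate 1 had 4.16 and replicate 2 had 7.48, with a mean of 5.82 ± 2.35, and at the other 4.85 and 7.93, or 6.39 ± 2.18. Replicate 2 alone had a peak at a group of starts 2.22 kb from the hairpin of miR-125b (MIR125B1, chr11:122099757-122099844), at 4.53 with 19 fragments.

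**Figure D3:**
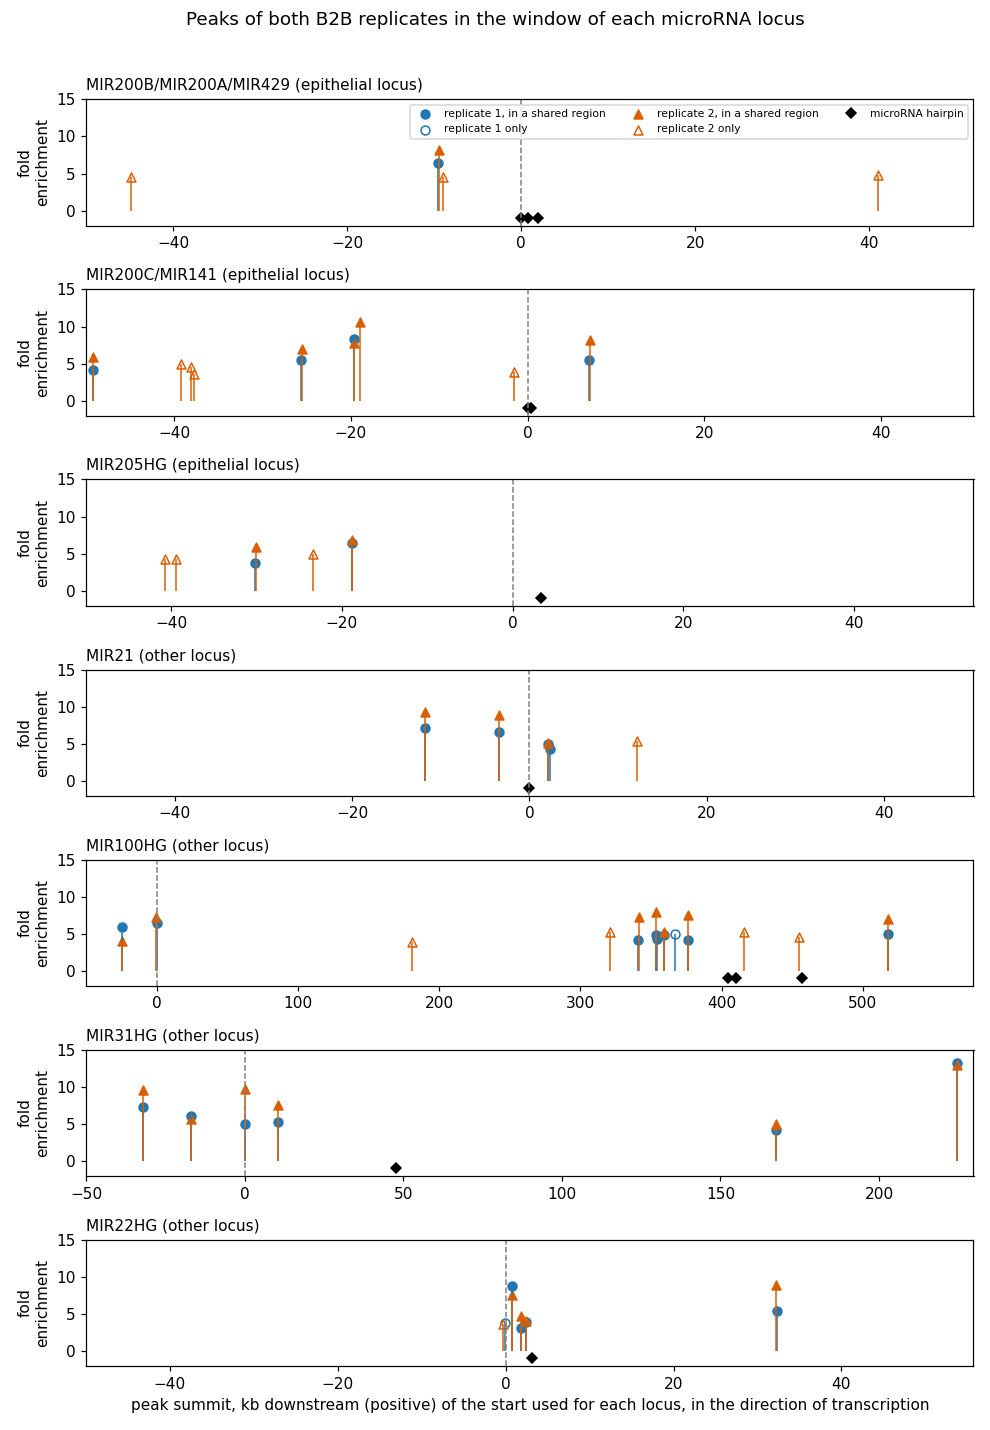
Fold enrichment of every peak in the 7 windows against the distance of its summit in kb from the start (dashed line), positive in the direction of transcription, for replicate 1 (circles) and replicate 2 (triangles), with hairpins as diamonds. Filled points belong to shared regions and open points to a single replicate. No point falls on the dashed line at the epithelial loci, where the nearest filled points are at −9.48, 6.98 and −18.8 kb, while MIR31HG, MIR100HG and MIR22HG have points at it.

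The open regions of both classes were of like strength. For the 7 epithelial regions the median fold enrichment was 5.54 in the first replicate and 7.02 in the second, and for the 20 others 5.11 and 7.36. The means of these medians were 6.28 ± 1.05 and 6.24 ± 1.59 (SD, n = 2). The epithelial median was the higher in replicate 1 and the lower in replicate 2. These SDs include the offset between the replicates as a whole, so they do not measure a difference between the classes. In each replicate both classes lay below the median over all shared regions, 6.41 and 8.01. Taking the strongest peak of each replicate in a region, replicate 2 had the higher value at 7 of the 7 epithelial regions and at 16 of the 20 others. At the C12orf57 region this set different summits against each other, and at the C12orf57 start itself replicate 1 was the higher.

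**Figure D4:**
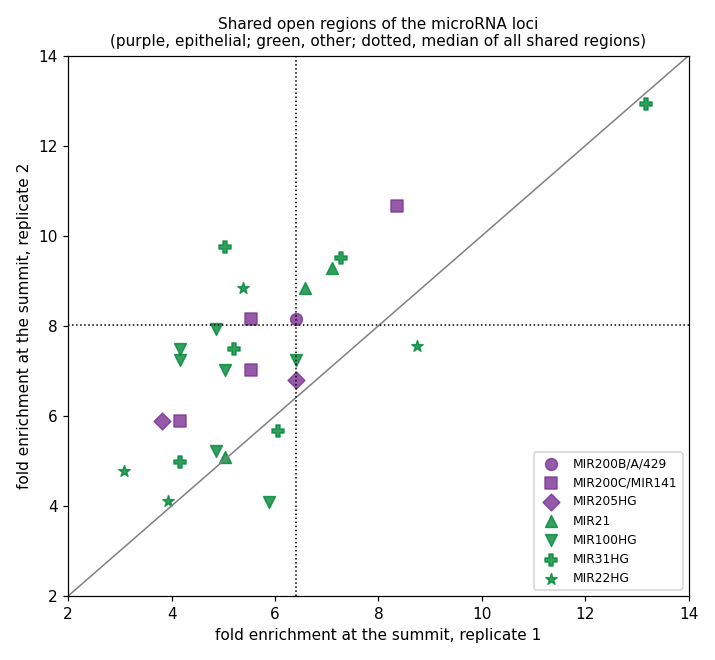
Fold enrichment at the summit in replicate 1 against replicate 2 for the 27 shared open regions, with 1 symbol per locus, the line of equal values and dotted lines at the medians of all shared regions (6.41 and 8.01). The epithelial regions (purple) lie among the others (green), and the point at 13.2 and 12.9 is the KLHL9 start in the MIR31HG window.

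Regions were placed by their summit, first within 1 kb of a canonical protein-coding start, then within 1 kb of any other annotated start, which can be that of a protein-coding gene. Of the 7 epithelial regions 3 lay at a canonical protein-coding start, 1 at another annotated start and 3 between genes. Of the 20 others 2 lay at a canonical protein-coding start, 9 at another annotated start, 5 in introns and 4 between genes. Of all shared regions 40.6% lay at a canonical protein-coding start, close to the epithelial share, and 13.5% at another annotated start. The windows held 10 canonical protein-coding starts at the epithelial loci and 13 at the others. The first of these counts fell on the miR-200 windows alone, since the MIR205HG window held 0 protein-coding starts.

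Counted within 1 kb of the canonical start, CpG content did not order the host genes fully by the presence of a peak, and the exception was MIR22HG. Within 500 bp of the canonical start MIR205HG had 19 CpG dinucleotides, and of all long non-coding RNA genes with fewer than 20, 3.12% had a peak in both replicates. MIR200CHG had 39 and no peak, MIR22HG had 24 and a peak, and from 20 to 40 the share was 12.4%. MIR100HG had 42, and from 40 to 60 it was 43.0%. MIR31HG had 98, and from 60 upward it was 67.6%. The other 19 starts of MIR22HG had between 89 and 92. The peak counted for MIR22HG in both replicates was the region among those starts, and the peaks nearest its canonical start did not overlap. The peak is thus not one of the CpG-poor start itself. The 5 epithelial hairpins had between 27 and 57. Whether CpG content has a part in the difference between the classes was not tested.

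AP-1, TEAD and RUNX factors are known to bind many distal open regions of epithelial and mesenchymal cells. Motifs were searched on both strands within 100 bp of each summit, and a match is a description of the sequence, not evidence of binding. The AP-1 motif was in 6 of the 27 regions, 22.2% (95% exact binomial interval 8.62 to 42.3), against 20.5% of all 25366 shared regions. Of these, 1 was epithelial, at the start of ENO2, and 5 were at the other loci, in MIR21, MIR31HG and MIR100HG. Over 1 kb from a canonical protein-coding start it was in 0 of 4 epithelial and 5 of 18 other regions, against 32.6% of all such regions. Some of these lay near another start of a protein-coding gene, as at ATN1, VMP1 and WDR81. The TEAD motif, as GGAATG, was in 1 epithelial and 3 other regions, against 17.7% of all shared regions, and RUNX, as TGTGGT, was in 0 and 2, against 13.2%. The E-box was in 2 epithelial and 2 other regions, against 8.46%. With 7 epithelial regions no share can be set apart from these backgrounds, and the interval for 0 of 7 reaches 41.0%.

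Among the regulators and targets tied to miR-200 and miR-205, both replicates had a peak at the canonical start of 3 of 12 and at any annotated start of 5 of 12, against the 52.0% and 55.8% of protein-coding genes given above. ZEB1, the main repressor of the miR-200 genes, had 4.50 in replicate 1 and 5.44 in replicate 2, with a mean of 4.97 ± 0.660 (SD, n = 2). SNAI2, another E-box repressor, had 7.33 ± 1.63 and GRHL1, a grainyhead factor of surface epithelia, 10.6 ± 2.56. SNAI1 had a peak in replicate 2 only, at 5.21, and ZEB2 and the splicing factor gene ESRP2 had one at a start other than the canonical one. GRHL2, OVOL1, OVOL2, ESRP1, TP63 and CDH1, which serve or mark epithelial identity, had no peak at any annotated start in both replicates.

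Other epithelial or endodermal microRNA genes were without a peak at the canonical start or hairpin, but not at every annotated start. Of 10 listed, 8 of them hairpins, 0 had a peak at the start in both replicates. The shares were 9.53% of all microRNA genes and 18.6% of all long non-coding RNA genes. With so short a list a count of 0 cannot be set apart from them. MIR203A, MIR375, MIR34B, MIR34C, MIR194-2HG and MIR122HG had no peak of both replicates at any annotated start either. The hairpins MIR449A, MIR182, MIR183 and MIR96 had one at the start of a transcript that spans them, or 4 of the 8 hairpins against 46.4% of all microRNA genes. MIR182, MIR183 and MIR96 are all on chromosome 7, and MIR34B and MIR34C are both on chromosome 11. They were counted singly, although genes of a cluster are not independent. Of 16 microRNA genes tied to mesenchymal, stress or growth programs, 15 of them hosts, 7 had a peak at the canonical start and 9 at any start, where the share of all long non-coding RNA genes was 20.2%. MIR17HG, the host of a cluster that promotes proliferation, had 7.93 ± 1.14 (SD, n = 2), MIR155HG 7.21 ± 0.584 and MIR210HG, induced by hypoxia, 8.84 ± 0.971. MIR29B2CHG had 8.42 ± 1.87, MIR9-1HG 8.65 ± 2.19, MIR4435-2HG 5.50 ± 0.679 and MIR193BHG 5.28 ± 0.857. MIR34AHG, the host of the p53 target miR-34a, and the smooth muscle gene CARMN had no peak at any start in both replicates, nor did DNM3OS, MIR503HG, MIR23AHG, MIR222HG and MIR10B. MIR99AHG and MIRLET7BHG had one at a start other than the canonical one. As among the 10 genes, hairpins make up most of the epithelial list and hosts most of the other, and the shares at the canonical start for all microRNA and all long non-coding RNA genes were 9.53% and 18.6%.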

How the data were processed

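The data were ATAC-seq peaks of untreated B2B cells, in 2 replicates. Reads were mapped by the authors with Bowtie2 2.4.4 to hg38. They removed duplicates with their own code and called peaks for each replicate with MACS2 2.2.7.1, keeping the remaining duplicates. SAMtools 1.13 is also named in the submitters' notes. The q limit, the Tn5 shift and the handling of mitochondrial reads are not given in the sources used here. The deposited fold enrichment is a linear ratio of fragments at the summit to local background, with a small constant added to each before division. The p and q values are given as −log10. The score deposited by the authors, a rescaled −log10 q, was left out.

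The analysis was limited to chromosomes 1 to 22, X and Y and used GENCODE 44. Peaks were shared from 1 bp of overlap, and a region belonged to a window where its summit did. Fragments were solved from fold enrichment and −log10 p to within 0.01, and in simulated data 1000 of 1000 were recovered. Intervals cover counting error only. Python 3.11.15, numpy 2.4.6, scipy 1.17.1, pyfaidx 0.9.0.4 and matplotlib 3.10.9 were used. The genes, lists and motifs were chosen with earlier results of these data known. All 10 genes, the hairpins in their hosts, the genes at the strongest regions and the members of the lists could be named. Alternatives were stricter peaks, equal peak numbers, stricter overlap, single replicates, other windows and other starts. The sequences of some open regions are not reported here.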

Additional observations from a re-analysis of the deposited data

How the results depend on the processing

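No paired analysis was possible because there is 1 condition and nothing to pair. The epithelial count of start sites was 0 under each of the 8 alternatives tried, which asked for a peak in both replicates except where 1 was left out. Stricter peaks, equal peak numbers, stricter overlap and a narrower window could not raise a count of 0. The single replicates only repeat that neither had a peak at these starts. The count could have changed only within 3 kb or at any annotated start. Within 3 kb, replicate 2 alone had a peak near MIR200C and MIR141. The other genes gave 3 throughout, except 4 within 3 kb and 4 at any annotated start. The 7 epithelial regions became 2 with 10 kb to either side and 20 with 100 kb. They became 4 without regions at canonical protein-coding starts, and between 7 and 18 with 1 replicate left out. Per 100 kb the epithelial value was 3.01 with 10 kb to either side and 3.30 with 100 kb. It lay between 2.28 and 5.87 with 1 replicate left out. At the other loci it was 1.76 with 10 kb to either side. The value of 1.80 at the other loci became 1.62 with equal peak numbers, 1.53 with an overlap of 50% and 1.98 with 100 kb. It was 1.62 without regions at canonical protein-coding starts, and between 2.15 and 2.33 with 1 replicate left out. The pooled epithelial density was the higher of the pair under every alternative but the one without protein-coding starts, where it was 1.31. The pooled value of the other loci is weighted by window length, and MIR100HG, at 1.11, makes up 628 of their 1114 kb. Single loci did not keep this order in the main setting. MIR21, MIR31HG and MIR22HG lay between 2.14 and 3.78. That is above MIR205HG at 1.92 and the miR-200b cluster at 0.981, and below the miR-200c locus at 3.98. The cause of the pooled difference was not tested. The AP-1 share was 14.8% within 50 bp of the summit and 33.3% over whole regions. Peaks rest on at least 16 and 13 fragments, so weaker openings were not detectable, and 2 replicates give SDs of low precision.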

Other observations

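Most of the genes that make and use microRNAs had a promoter peak in B2B cells. Of 14 listed genes 11 had a peak of both replicates within 1 kb of the canonical start and 13 at any annotated start, against 52.0% and 55.8% of all protein-coding genes. DROSHA, the nuclease that cuts hairpins from primary transcripts, had a fold enrichment of 14.7 in replicate 1 and 16.9 in replicate 2, with a mean of 15.8 ± 1.55 (SD, n = 2), and its partner DGCR8 had 7.58 ± 3.37. XPO5 and RAN, which carry hairpins out of the nucleus, had 7.60 ± 1.43 and 10.4 ± 0.0909. DICER1, which trims them, had 9.63 ± 1.37, and its partners PRKRA and TARBP2 had 15.6 ± 0.221 and 8.02 ± 1.40. Of the Argonaute genes, AGO1, AGO2 and AGO3 had a peak in both replicates, from 6.23 ± 0.351 at AGO2 to 12.2 ± 1.33 at AGO1, and AGO4 had one in replicate 2 only, at 5.44. TNRC6A had 4.26 ± 0.386, and TNRC6B and TNRC6C had a peak of both replicates at another of their starts.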
